A study of Mus musculus with 6 samples.

Results

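The subject is a set of 38 mouse genes of the postsynaptic density and of calcium-calmodulin signalling, chosen by name from the 29547 rows of the deposited expression table. Of these, 21 encode scaffold or scaffold-associated proteins and 17 encode calcium-calmodulin-dependent kinases, their inhibitors and relatives, calmodulin, neurogranin or subunits of the phosphatase calcineurin. All 38 had a row in the table and all passed the filter on low values. RNA bound to ribosomes carrying phosphorylated S6, a protein of the small subunit, was precipitated from the mouse vBNST (the ventral part of the bed nucleus of the stria terminalis, a forebrain region studied for its role in sustained threat), collected 90 min from the CS+ or CS- test. The 6 libraries divide into 3 Con and 3 CS. The labels do not state which of the tests the CS libraries followed or what the Con animals experienced, and they name no strain, age, sex or genotype. Nor do they tie libraries to separate animals, so the p-values describe the spread among these 6 libraries, which may be technical.

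Excitatory synapses are built on a dense protein lattice under the postsynaptic membrane. Dlg proteins bind glutamate receptors, Dlgap proteins link Dlg to Shank, and Shank and Homer connect the lattice to the actin cytoskeleton and to metabotropic receptors. Calcium that enters through the receptors binds calmodulin, which activates the CaM kinases and calcineurin, enzymes with opposing roles in strengthening and weakening the synapse. RNAs for several of these proteins, among them Camk2a, Nrgn and the Shank genes, are carried into dendrites and translated there.

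The unit is RPKM, reads per kilobase of row length scaled to the assigned reads of the library, so levels of different genes can be compared per length. Libraries held 765769 to 2342686 assigned reads, lowest in Con library 1. As deposited, CS values exceeded Con values by a median of 0.37 on the log2 scale, and this shift was removed by centring each library on the median of the tested rows, so every level below is a median-scaled RPKM and every difference is CS minus Con relative to that median. Of 11 markers fixed for the BNST, all had reads in at least 1 library, with a summed level of 174 to 190 RPKM in Con and 183 to 293 in CS, most of it from the opioid peptide gene Penk. Single BNST markers had 4 higher and 7 lower estimates in CS, with a median log2 fold change of -0.35. The 7 striatal projection neuron markers, from the neighbouring striatum, also all had reads, with a summed level of 170 to 312 in Con and 110 to 161 in CS. Lists of 9 oligodendrocyte and 5 glutamatergic neuron markers had reads for every gene, at 182 to 317 and 38.8 to 69.1 in Con and 90.4 to 174 and 12.5 to 50.7 in CS, though Mog, Opalin and Neurod6 had no read in at least 1 library, as had Tac2 and Esr1 of the BNST list. The summed level of 7 general neuron markers was 630 to 810 in Con and 428 to 498 in CS, without overlap. By far the largest part came from Nefl, which ranged from 395 to 561 in Con and from 197 to 253 in CS. The gap in this sum therefore does not stand for the 7 markers as a set. Their estimates were higher for 3 and lower for 4, and 0 passed the test described next (limma). The part of these cell types in the results below was not tested. The libraries hold RNA precipitated with phosphorylated ribosomes, and none of RNA before precipitation is among them. Fewer cells of a type, less RNA per cell and a smaller part of that RNA on phosphorylated ribosomes therefore cannot be told apart.

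None of the 38 genes passed the test between CS and Con (limma on log2(RPKM + 0.1), Benjamini-Hochberg adjusted over 20550 rows, threshold 0.05; smallest adjusted p = 0.134). Of all tested rows 199, or 0.968%, passed. With p under 0.05 before adjustment, 3 genes lay higher (Camk2g, Camkk1, Calm3) and 3 lower (Dlg1, Shank2, Nrgn), where 3.77% of all tested rows were higher and 8.77% lower by that measure. Limma voom on the reads recovered from the table, an alternative model for rows with at least 60 reads, called 1 of the 38, Camk2g, as higher and 0 as lower, against 0.268% and 6.16% of the 10463 rows it tested. Scaled by library totals instead, voom called 4 higher (Camk2g, Camkk1, Calm2, Calm3) against 2.6% of rows, and 0 lower.

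After median scaling, the data bound the size of most differences. For 26 of the 38 genes the 95% interval of the log2 fold change lay within a 2-fold change in either direction, 16 of 21 scaffolds and 10 of 17 kinase and calmodulin genes. The same held for 17% of all tested rows and for 37.8% of the 9041 tested rows with at least 84 reads, the count of Homer3, the member with the fewest reads. Estimates were above 0 for 27 genes and below 0 for 11, with a median of 0.10 against 0.03 over all tested rows. Without the median scaling 34 were above 0 and 4 below, with a median of 0.47 against 0.41 over all rows, so the number of genes with a higher estimate depends on the scaling. The bound depends on it too, since single estimates also lay higher, such as 0.76 against 0.39 for Magi1. Intervals within a 2-fold change were not counted without the scaling.

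**Figure D1:**
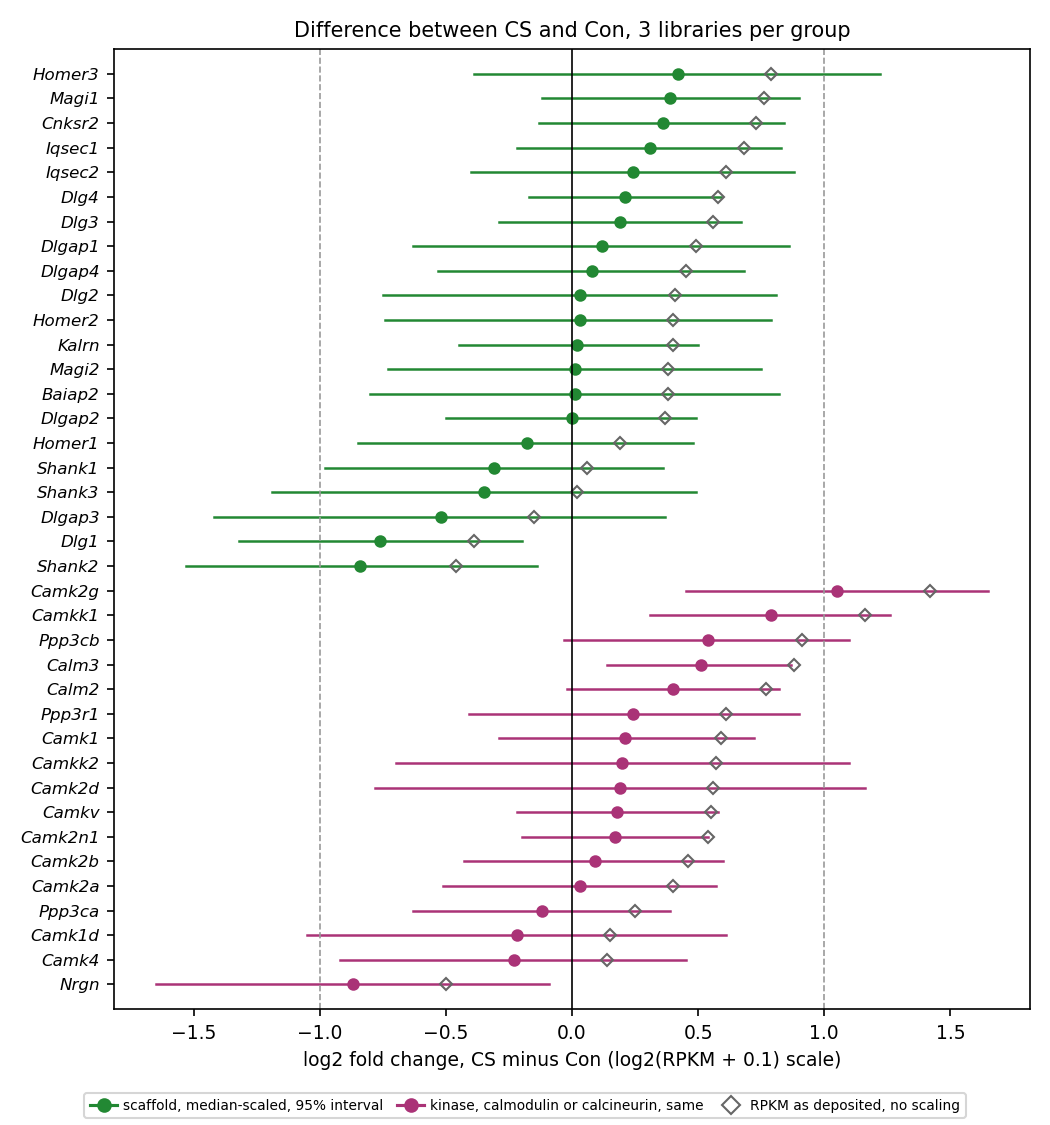
Log2 fold change of each gene, CS minus Con, with its 95% interval (filled circles and lines, 3 libraries per group), and the estimate without median scaling (open diamonds). Dashed lines mark a 2-fold change. Camk2g, Camkk1, Calm3, Dlg1, Shank2 and Nrgn have intervals that leave out 0, and none of the 38 passed adjustment over all tested rows.

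The gene with the largest estimate among the kinases was Camk2g (chr14:20734875-20794088 of GRCm38, minus strand), which encodes the gamma subunit of CaMKII, the holoenzyme that calcium-calmodulin activates and that can carry calmodulin to the nucleus. Its level was 6.0, 8.82 and 5.38 RPKM in Con (libraries 1, 2 and 3, the order used throughout) and 15.8, 13.4 and 12.2 in CS. All 3 CS libraries lay above all 3 Con libraries, on 383 reads in total. The log2 fold change was 1.05 ± 0.25 (SE), a fold of 2.07, which passed by voom (1.03 ± 0.27, limma voom adjusted p = 0.0465) and not by limma on log2 RPKM (adjusted p = 0.134). With 1 library left out in turn the limma estimate stayed between 0.92 and 1.27 (adjusted p = 0.0719 to 0.36), and voom called it in 1 of the 6 cases, without Con library 2.

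Camk2a and Camk2b did not share this difference. Camk2a, the main forebrain subunit, was at 40.7 ± 11.2 RPKM in Con and 40.7 ± 4.23 in CS (SD, n = 3 per group; log2 fold change 0.03, 95% interval -0.51 to 0.57). Camk2b, the subunit that also binds actin, was at 28.8 ± 7.34 and 30.0 ± 1.71. Camk2d, the delta subunit, was the least abundant of the 38 genes at 1.39, 1.34 and 1.21 RPKM in Con and 1.53, 1.5 and 1.51 in CS, so its groups did not overlap while the estimate was only 0.19 ± 0.40. Its 95% interval, -0.78 to 1.16, took in the Camk2g estimate, so whether Camk2d shared the difference is not settled.

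Shares within the family do not depend on how libraries are scaled to each other. Camk2g made up 8.1%, 8.87% and 9.06% of the summed RPKM of the 4 CaMKII subunit genes in Con libraries 1, 2 and 3. In CS libraries 1, 2 and 3 it made up 16.8%, 16.6% and 14.7%, a mean of 16.0 ± 1.13% against 8.67 ± 0.507% (SD, n = 3). This difference of 7.36 percentage points is several times the spread within either group, although with 3 libraries against 3 an exact two-sided permutation test cannot give a p below 0.1 and none was run on shares. Camk2a held 52.4 ± 0.778% in Con and 47.3 ± 2.01% in CS. With Camk2g left out of the sum, a choice made after seeing the data, the Camk2a share was 57.4 ± 1.09% and 56.3 ± 1.97% and the Camk2b share 40.7 ± 0.899% and 41.6 ± 1.88%, with overlapping groups for both.

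**Figure D2:**
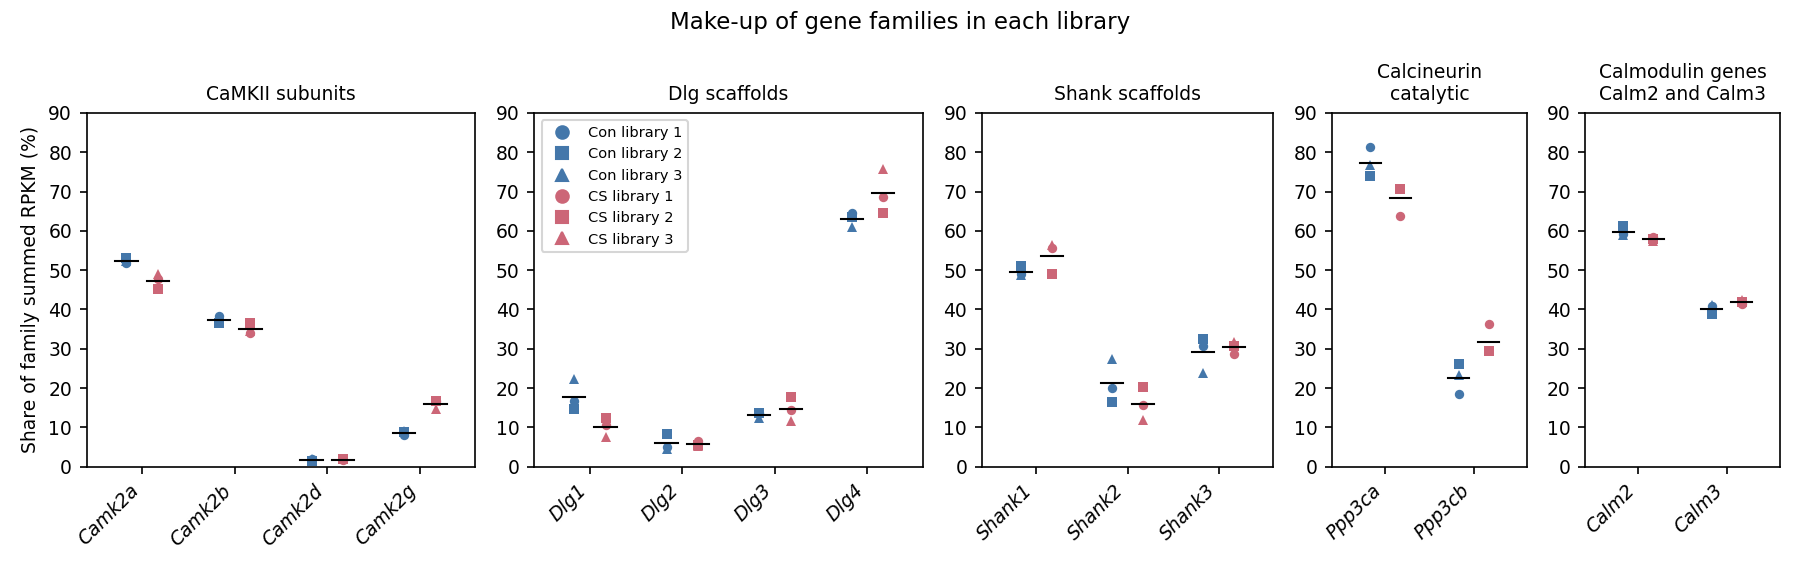
Share of each gene in the summed RPKM of its family, in percent, for CaMKII subunits, Dlg scaffolds, Shank scaffolds, calcineurin catalytic subunits and the calmodulin genes Calm2 and Calm3. Each point is a library and each black line the mean of 3; the Camk2g share is between 14.7% and 16.8% in CS and between 8.1% and 9.06% in Con.

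Camkk1, which encodes a CaM kinase kinase that phosphorylates and activates CaMKI and CaMKIV, was at 5.57, 5.30 and 6.04 RPKM in Con and 10.2, 10.5 and 8.72 in CS. Every CS library lay above every Con library, on 282 reads, and the Con libraries were close to each other. The log2 fold change was 0.79 ± 0.20 (limma adjusted p = 0.152; limma voom adjusted p = 0.106 with median scaling and 0.0363 with library totals). Its paralog Camkk2 was at 3.19 ± 1.21 and 3.50 ± 0.274 RPKM. The kinases that these enzymes activate had estimates near 0: Camk1 0.21 ± 0.21, Camk1d -0.22 ± 0.35 and Camk4, the nuclear CaMKIV that phosphorylates CREB, -0.23 ± 0.29.

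The calmodulin genes were the most abundant of the set. Calm2 (chr17:87433412-87446935) was at 426, 511 and 414 RPKM in Con and 648, 537 and 597 in CS. Calm3 (chr7:16915379-16924114), which encodes the same protein, was at 294, 324 and 288 in Con and 459, 389 and 442 in CS. In both genes all CS libraries lay above all Con libraries, on 7349 and 8627 reads. Log2 fold changes were 0.40 ± 0.17 for Calm2 (limma adjusted p = 0.419) and 0.51 ± 0.15 for Calm3 (0.23), a fold of 1.32 and 1.42. Neither passed by voom with median scaling (limma voom adjusted p = 0.158 and 0.0619), and both passed with library totals (0.0403 and 0.0226). With 1 library left out in turn, voom with median scaling called Calm3 in 1 of 6 cases, without Con library 2. How reads were divided between calmodulin genes and their processed pseudogenes was not recorded in these sources, so the levels of single calmodulin genes are uncertain.

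Nrgn encodes neurogranin, a small dendritic protein that holds calmodulin at low calcium. It was at 122, 62.1 and 147 RPKM in Con and 50.2, 58.0 and 62.4 in CS. The groups overlapped because Con library 2 was as low as the CS libraries, and the log2 fold change was -0.87 ± 0.33 (limma adjusted p = 0.344). Without Con library 2 it was -1.23 (limma adjusted p = 0.0523), and of the 6 cases with a library left out voom called it lower in this one. Slc17a7, the vesicular glutamate transporter of cortical and hippocampal neurons, was at 31, 5.26 and 27.1 RPKM in Con and 5.48, 11 and 16.4 in CS, so it too was low in Con library 2. The 5 glutamatergic markers did not share 1 order, since 3 of them, Slc17a6, Neurod6 and Tbr1, were highest in Con library 2 among the Con libraries. The part of such neurons in the Nrgn values was not tested.

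Other regulators of CaM kinases differed little. Camk2n1, an endogenous inhibitor of CaMKII and the fifth most abundant gene of the set, was at 39.5 ± 4.58 RPKM in Con and 44.4 ± 3.71 in CS (95% interval of the log2 fold change -0.20 to 0.54). Camkv, a kinase-like vesicle protein without known kinase activity, was at 34.0 ± 5.41 and 38.2 ± 1.51 (-0.22 to 0.58). These intervals, of median-scaled values, leave out a 2-fold change in either direction.

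Calcineurin, the calcium-calmodulin-dependent phosphatase, has a catalytic and a regulatory subunit. Ppp3cb, the beta catalytic subunit (chr14:20499364-20546573), was at 5.17, 6.71 and 4.47 RPKM in Con and 8.41, 7.48 and 7.69 in CS, with no overlap (log2 fold change 0.54 ± 0.24, limma adjusted p = 0.42). Ppp3ca, the alpha subunit and the more abundant of the pair, was at 18.8 ± 3.91 and 17.1 ± 1.99. Ppp3cb therefore held a larger share of the catalytic pair in CS, 36.2%, 29.4% and 29.4%, than in Con, 18.6%, 26.1% and 23.2%. The regulatory subunit Ppp3r1 was at 21.1 ± 7.29 and 24.0 ± 0.165 RPKM. Its row shares 462 bases with Wdr92 on the same strand, whose 433 reads against the 677 of Ppp3r1 could be shared, so its level is uncertain.

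Of the genes whose groups did not overlap, those with an unadjusted p under 0.05 or, for Ppp3cb, close to it are shown with their promoters where the RefSeq table of GRCm38.p6 holds an entry near the start of the deposited row. Each window runs from 250 bases before to 50 bases after the start site, and capitals mark the core of the cAMP response element bound by CREB, a target of CaMKIV, searched as TGACG on the strand shown and as CGTCA for the other strand. The first 3 genes lay higher in CS and Dlg1 lay lower.
Calm3, chr7:16923983-16924282, minus strand: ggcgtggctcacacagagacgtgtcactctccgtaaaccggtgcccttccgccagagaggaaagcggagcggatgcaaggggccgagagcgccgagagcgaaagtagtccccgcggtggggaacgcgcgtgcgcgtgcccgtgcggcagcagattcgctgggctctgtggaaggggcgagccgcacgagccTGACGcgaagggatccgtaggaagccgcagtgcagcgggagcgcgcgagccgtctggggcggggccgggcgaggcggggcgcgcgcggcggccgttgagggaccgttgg
Camkk1, chr11:73018738-73019037, plus strand: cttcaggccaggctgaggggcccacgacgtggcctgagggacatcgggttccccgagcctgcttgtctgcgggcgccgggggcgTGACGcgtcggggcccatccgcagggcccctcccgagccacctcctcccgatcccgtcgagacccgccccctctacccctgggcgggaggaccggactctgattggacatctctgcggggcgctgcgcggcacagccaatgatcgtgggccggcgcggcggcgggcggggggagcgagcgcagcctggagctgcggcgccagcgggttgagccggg
Ppp3cb, chr14:20546524-20546823, minus strand: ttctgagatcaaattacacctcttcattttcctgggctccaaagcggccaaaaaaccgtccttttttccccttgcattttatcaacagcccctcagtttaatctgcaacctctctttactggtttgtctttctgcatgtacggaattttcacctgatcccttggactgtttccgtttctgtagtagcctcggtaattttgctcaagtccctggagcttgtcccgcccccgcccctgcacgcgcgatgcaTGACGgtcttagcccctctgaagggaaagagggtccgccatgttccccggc
Dlg1, chr16:31663193-31663492, plus strand: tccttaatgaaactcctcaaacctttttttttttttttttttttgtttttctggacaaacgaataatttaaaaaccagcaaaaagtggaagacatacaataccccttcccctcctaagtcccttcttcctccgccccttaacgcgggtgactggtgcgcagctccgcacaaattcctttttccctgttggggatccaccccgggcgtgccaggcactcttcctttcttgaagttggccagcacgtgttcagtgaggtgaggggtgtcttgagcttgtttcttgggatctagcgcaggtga

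Calm3, Camkk1 and Ppp3cb each had 1 match to the core and Dlg1 had 0. Camk2d, Iqsec1 and Magi1, whose groups also did not overlap with CS higher, had 0 matches. Calm2, Camk2g and Shank2, likewise without overlap, had no window to read. Of the 29 genes of the set whose promoter was read 9 had a match (31%), against 20.8% of all 32851 promoter windows, and 0 of the 29 held the full element TGACGTCA, which 1.79% of all windows hold and whose matches also contain the core. Some of the 29 windows lie far from the start of the deposited row, such as those of Dlg2 (614113 bases) and Magi1 (370226 bases). Dlg3 (6772 bases) and Dlgap4 (107259 bases) were among the 9 with a match. Homer1 had the most core matches, 3, and its groups overlapped. The GC box GGGCGG or its complement CCGCCC was in 20 of the 29 windows (69%) against 35.7% of all. A match describes letters in the window and not binding.

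Among the scaffolds, the genes with the smallest p were 2 with lower levels in CS. Dlg1 (chr16:31663443-31873356), a membrane-associated guanylate kinase that traffics AMPA receptors, was at 14.2, 12.2 and 17.2 RPKM in Con and 9.01, 9.97 and 6.74 in CS. Shank2 (chr7:144001928-144424494), a master scaffold that links Dlgap to Homer and actin, was at 11.6, 14.4 and 12.4 in Con and 7.82, 9.45 and 4.78 in CS. In both genes every CS library lay below every Con library, and CS library 3 was the lowest. Log2 fold changes were -0.76 ± 0.23 for Dlg1 (limma adjusted p = 0.243; limma voom adjusted p = 0.0612) and -0.84 ± 0.29 for Shank2 (0.302; 0.0639). With 1 library left out in turn the estimates ranged from -0.87 to -0.58 and from -1.03 to -0.54 in limma, and voom called Dlg1 lower without Con library 2 and Shank2 lower without Con library 1 or CS library 1.

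Dlg1 stood apart from the other Dlg genes. Its share of the summed RPKM of the 4 Dlg genes was 16.7%, 14.6% and 22.3% in Con and 10.5%, 12.3% and 7.46% in CS. Dlg4, the main scaffold of mature excitatory synapses and the most abundant scaffold gene of the set, was at 51.6 ± 4.14 RPKM in Con and 59.9 ± 8.24 in CS (log2 fold change 0.21, 95% interval -0.17 to 0.59). Dlg3 was at 10.8 ± 1.17 and 12.4 ± 1.88 and Dlg2 at 4.95 ± 1.83 and 4.89 ± 0.683. With Dlg1 left out of the sum, chosen after seeing the data, Dlg4 held 76.7 ± 2.16% in Con and 77.3 ± 4.17% in CS.

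Shank2 was not as clearly apart within its family, where its share was 20.1%, 16.4% and 27.4% in Con and 15.6%, 20.3% and 11.8% in CS, with overlap. Shank1 was at 28.1, 44.7 and 21.9 RPKM in Con and 27.9, 22.8 and 22.8 in CS. Shank3, whose loss disturbs corticostriatal synapses in mice, was at 17.6, 28.6 and 10.8 and at 14.4, 14.2 and 12.8. Both spanned a wider range in Con than in CS, with Con library 2 the highest and Con library 3 the lowest.

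The Dlgap genes, which bridge Dlg and Shank, had overlapping groups. Dlgap3, the member most typical of striatum, was at 25.2, 49.2 and 18.4 RPKM in Con and 22.9, 20.9 and 15.9 in CS (log2 fold change -0.52 ± 0.37). Dlgap2 was at 16.3 ± 3.1 and 16.2 ± 2.06, Dlgap4 at 14.8 ± 3.43 and 15.5 ± 3.0, and Dlgap1 at 3.23 ± 0.757 and 3.45 ± 0.334. Without Dlgap3 in the sum the shares of these 3 overlapped between groups.

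Homer proteins join Shank to metabotropic glutamate receptors, and a short activity-induced form of Homer1 competes with the long forms, which a table of 1 row per gene cannot separate. Homer1 was at 4.76 ± 0.844 RPKM in Con and 4.18 ± 0.72 in CS, with a log2 fold change of -0.18 ± 0.28. Homer2 was at 4.23 ± 1.24 and 4.19 ± 0.455. Homer3 was at 2.21 ± 0.333 and 3.01 ± 0.69 on 84 reads, and 874 of its 3440 bases lie opposite Ddx49, a row of 170 reads, which leaves its level uncertain.

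The remaining scaffolds organise signalling around receptors. Magi1, an inverted guanylate kinase scaffold of synapses and junctions, was at 9.80, 9.34 and 6.80 RPKM in Con and 10.5, 11.7 and 11.6 in CS, with no overlap (log2 fold change 0.39 ± 0.21). Cnksr2, a scaffold of Ras signalling, was at 7.99, 9.74 and 7.66 in Con and 12, 11.2 and 9.46 in CS, overlapping only through CS library 3 (0.36 ± 0.20). Iqsec1, an Arf exchange factor with a calmodulin-binding motif, was at 8.55, 6.59 and 10.1 and at 10.4, 10.2 and 10.3, so its groups barely separated. None of these 3 passed (limma adjusted p = 0.517, 0.535 and 0.638). Iqsec2 (log2 fold change 0.24 ± 0.27), the exchange factor gene Kalrn (0.02 ± 0.20), the actin regulator gene Baiap2 (0.01 ± 0.34) and Magi2 (0.01 ± 0.31) lay close to 0. Iqsec1 shares 574 bases with Gm44123 on the opposite strand and Magi2 203 with Gm29254 on the same strand, whose rows held 133 and 144 reads.

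**Figure D3:**
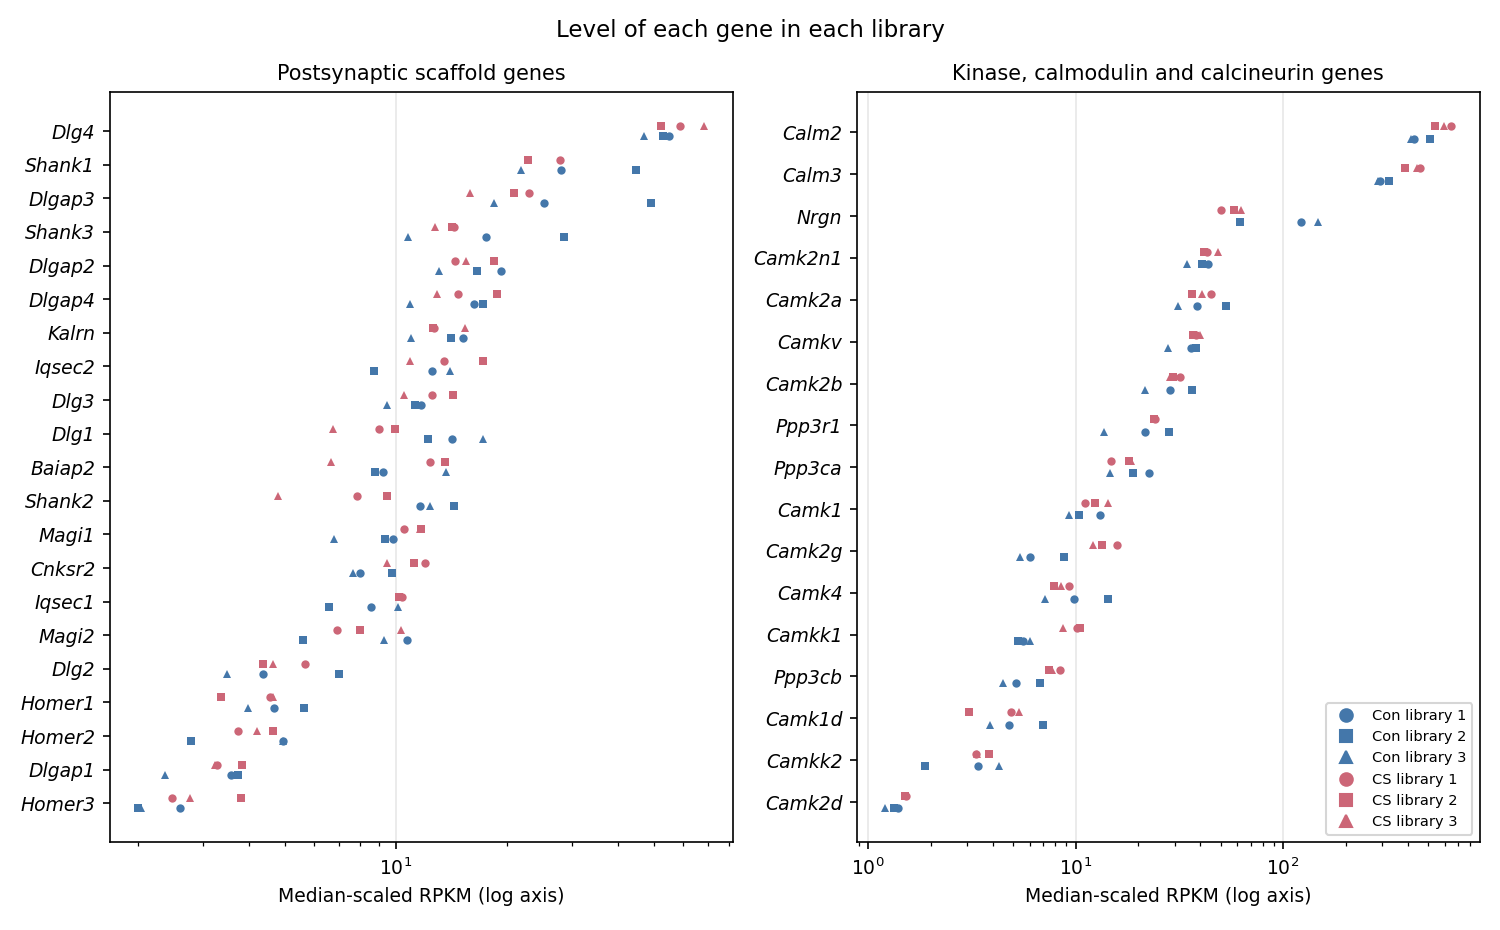
Median-scaled RPKM of each gene in each library on a log axis, scaffolds on the left and kinase, calmodulin and calcineurin genes on the right, ordered by mean level. Calm2 and Calm3 lead at 522 and 366 RPKM and Camk2d is lowest at 1.42; blue Con and red CS points separate for Camk2g, Camkk1, Calm2, Calm3, Ppp3cb, Dlg1 and Shank2 and interleave for most others.

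Set against each other, the kinase and calmodulin genes had a median log2 fold change of 0.19 and the scaffolds one of 0.03, equal to that of all tested rows. Without median scaling these were 0.56, 0.40 and 0.41. Groups did not overlap with CS higher for 6 of 17 kinase and calmodulin genes and 2 of 21 scaffolds, where this held for 7.57% of all tested rows and for 11.7% of those with at least 84 reads. With CS lower there were 0 of 17 and 2 of 21, where 15.4% of all rows and 15.2% of those with at least 84 reads did so. Over both sets the 8 higher and 2 lower genes became 19 and 1 without median scaling, 8 and 8 without Con library 3 and 12 and 4 without Con library 2. Shares of all tested rows were not counted under these 3 settings, and a group with fewer libraries overlaps less often in any row. These changed counts are therefore not a result about the members. The difference between the median deviation of the kinase group and that of the scaffold group within a library, which no scaling changes, was -0.09, -0.06 and -0.04 in Con and 0.12, -0.08 and 0.20 in CS. CS library 2 lay with the Con libraries, so the groups overlapped on this measure.

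The libraries of the Con group spread more widely than those of CS. The range of a gene over the 3 libraries, on the log2 scale, had a median of 0.61 in Con and 0.31 in CS over the 38 genes, and was wider in Con for 29 of them. Over tested rows with at least 84 reads these medians were 0.69 and 0.54, with a wider Con range in 65.3% of rows. The genes with the widest Con range were Dlgap3 (1.42) and Shank3 (1.40), followed by Nrgn (1.24) and Camkk2 (1.14), the first pair highest and the second pair lowest in Con library 2. Con library 2 was the highest Con library for 19 of the 38 genes, and Con library 3 the lowest for 27. The matching shares of all tested rows were not counted, so neither count is a result particular to these genes.

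Several marker lists had the same order of Con libraries, highest in library 2 and lowest in library 3. The summed level of striatal projection neuron markers was 185, 312 and 170 RPKM in the Con libraries, in order, and 161, 135 and 110 in CS, and 5 of the 7 were highest in Con library 2 among the Con libraries. Most of this sum was Ppp1r1b, a phosphatase inhibitor gene, at 153, 269 and 145 in Con. Oligodendrocyte markers summed to 235, 317 and 182 in Con and microglia markers to 40.5, 60.1 and 36.6, the same order. Camk4 followed the same order in Con, at 9.85, 14.4 and 7.16 RPKM, and was at 9.32, 7.88 and 8.48 in CS. Without Con library 2 the log2 fold changes of Dlgap3, Shank1, Shank3 and Camk4 went from -0.52, -0.31, -0.35 and -0.23 to -0.12, -0.01, 0.01 and 0.03. Without Con library 3 they went the other way, to -0.82, -0.52, -0.69 and -0.46. The direction of both moves was set in advance, since each gene was highest in Con library 2 and lowest in Con library 3. Other members with this order moved likewise, such as Dlg2 (0.32 and -0.17) and Camk2a (0.25 and -0.14). The moves thus give only the size by which the 4 estimates depended on these Con libraries. The part of striatal tissue or of these glia in them was not tested.

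**Figure D4:**
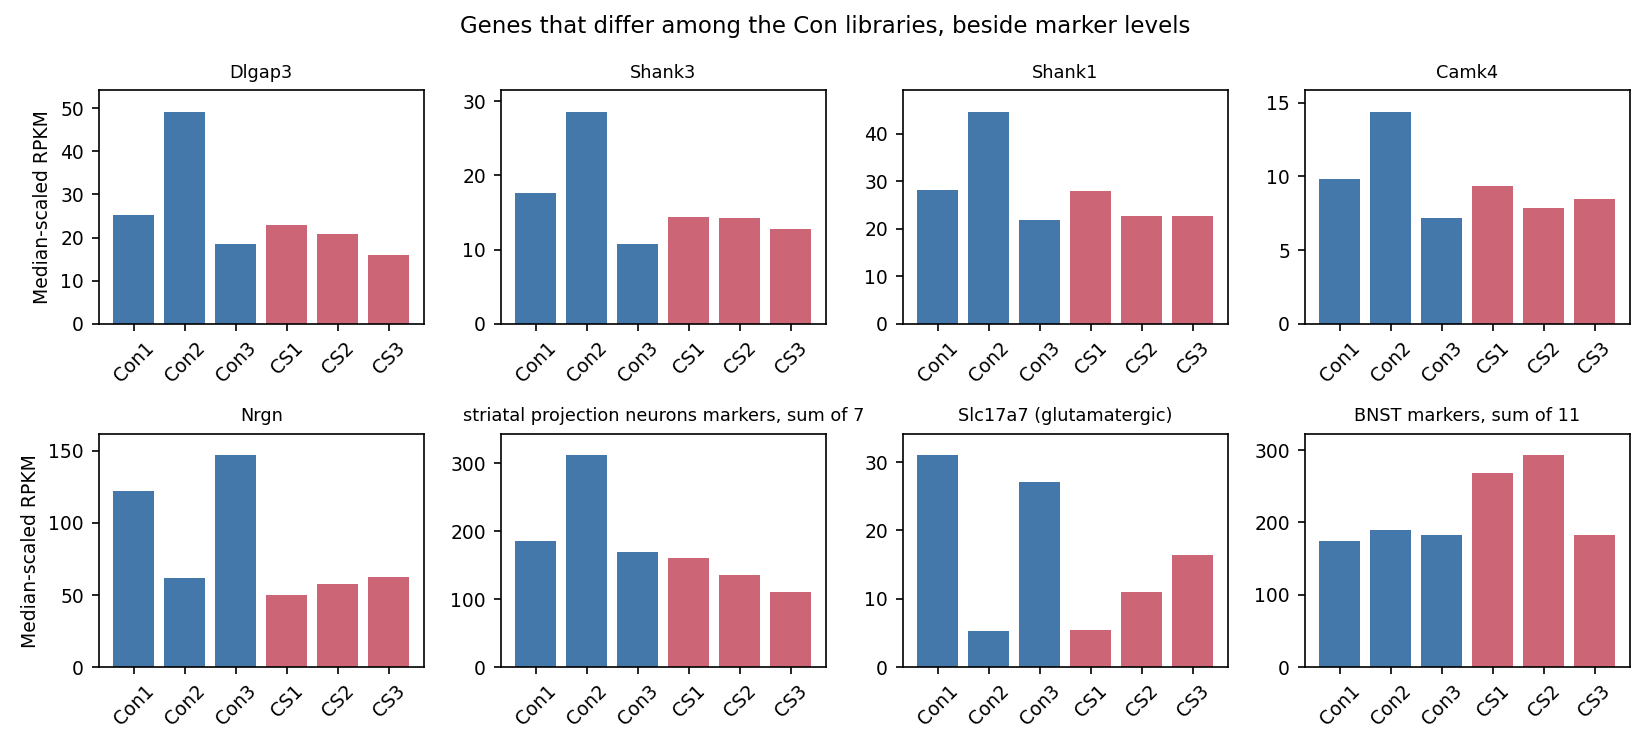
Median-scaled RPKM of Dlgap3, Shank3, Shank1, Camk4 and Nrgn in each library (bars), beside the summed level of 7 striatal projection neuron markers, Slc17a7 and the summed level of 11 BNST markers; each axis starts at 0. Con library 2 has the highest bar for the first 4 genes and for the striatal markers, and the lowest Con bar for Nrgn and Slc17a7. Slc17a7 was chosen after its values were seen, and 3 of the 5 glutamatergic markers were instead highest in Con library 2 among the Con libraries.

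Further genes of the same pathways were read from 2 lists. Of 39 other postsynaptic density genes 36 were tested, and 1, Abi2, fell (0 rose), where 0.968% of all tested rows passed in either direction. Abi2, a subunit of the WAVE actin-regulatory complex, was at 11.1, 11.2 and 10.6 RPKM in Con and 4.72, 4.80 and 4.67 in CS (log2 fold change -1.20 ± 0.18, limma adjusted p = 0.0484; limma voom adjusted p = 0.00393). The libraries of each group nearly coincided. Leaving out each library in turn kept the estimate between -1.2 and -1.14, but Abi2 then passed in 0 of 6 cases (limma adjusted p = 0.0712 to 0.168). The median of this list was 0.06. Next by p were Lzts3, a Shank-binding protein gene (-0.65 ± 0.20, limma adjusted p = 0.25), and Lin7b, a scaffold gene whose row overlaps Gm45619 on the opposite strand (-0.87 ± 0.27, 0.253).

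Of 46 other calcium-calmodulin genes 43 were tested, and 1, Ppp1cc, fell (0 rose), with a list median of -0.00. Voom called 3 lower and 1 higher of the 42 it tested, against 6.16% and 0.268% of all its 10463 rows. Ppp1cc, a catalytic subunit of protein phosphatase 1, was at 53.6, 37.1 and 57.8 RPKM in Con and 14.5, 14.5 and 17 in CS (log2 fold change -1.66 ± 0.21, limma adjusted p = 0.0283). Every CS library was far below every Con library. Leaving out each library in turn, Ppp1cc passed without Con library 2 and not in the other 5 cases (limma adjusted p = 0.0295 to 0.134). Voom also called Rcan1, an inhibitor of calcineurin that calcineurin signalling induces, as lower, at 18.3, 13.7 and 21.7 RPKM in Con and 8.40, 9.11 and 7.75 in CS (log2 fold change -1.06 ± 0.22 and adjusted p = 0.0999 by limma; limma voom adjusted p = 0.036). It called Caln1, a calmodulin-like gene of neurons, as lower, at 36.8, 51.5 and 36.4 RPKM in Con and 21.3, 20.3 and 15 in CS (-1.13 ± 0.20, limma voom adjusted p = 0.00771). Vsnl1, a neuronal calcium sensor, was called higher, at 28.3, 31.1 and 29.5 in Con and 55.6, 47.6 and 51.2 in CS (0.80 ± 0.19, limma voom adjusted p = 0.0339). The groups did not overlap for either gene, and both were short of the threshold in limma (adjusted p = 0.0842 and 0.0632). With library totals, where voom called 2.6% of all its rows higher, it left out Rcan1 and Caln1 (limma voom adjusted p = 0.108 and 0.0589). It called 2 further genes higher. These were Rcan2, a paralog of Rcan1 (1.2 ± 0.28, limma voom adjusted p = 0.0341), and, from the list of postsynaptic density genes, Sh3kbp1, an endocytic adaptor gene (0.95 ± 0.25, 0.0432).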

How the data were processed

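RNA precipitated with phosphorylated ribosomes was sequenced in 6 vBNST libraries, 3 Con and 3 CS. The submitters' processing notes name Trimmomatic 0.36, featureCounts, Subread 1.5.1 and the builds GRCm38 and mm10. Aligner and strand setting: not given in the sources used here. Per the file headers, the authors deposited RPKM with the position and length of each row. RPKM times length gave whole reads (tolerance 0.01) for 100% of values above 0.

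Log2(RPKM + 0.1) of rows averaging at least 0.5 RPKM was centred on the median deviation per library. Limma 3.58.1 in R 4.3.3, with a variance trend, tested CS minus Con, with Benjamini-Hochberg adjustment over 20550 rows. Fold changes on this scale understate those of low rows. Levels are 2 to the power of the scaled value, minus 0.1. Voom used recovered reads of rows with at least 60. The models were tested on simulated reads. Alternatives are given in the closing section. Values in every library are given for members called by either model, with groups that do not overlap, or with the 4 smallest p of their group; others named by library were chosen after their values were seen. The members and lists were chosen with earlier results of these data known. Counts rest on reads without molecular identifiers.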

Additional observations from a re-analysis of the deposited data

How the results depend on the processing

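No member passed under any log2 RPKM alternative (pseudocount, filter, scaling, variance trend, replicate block or a library left out). Of 684 member estimates under 18 alternatives each, 615 kept direction and side of the threshold, 7 passed by voom, 0 were lost and 62 changed sign, in 18 genes whose estimates lay near 0 or depended on scaling; 20 genes kept their sign. Leave-one-out for voom, the count of genes without overlap and shares without Camk2g, Dlg1 or Dlgap3 were chosen after seeing the data.

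Calls over all rows (199) became 112 with a pseudocount of 1, 107 with no filter, 65 as deposited (35 higher, 30 lower), 110 with quantile normalization (37 and 73), 428 with at least 60 reads (14 and 414), 673 with voom and 525 with voom on library totals. With no variance trend 146 passed (111 and 35). With 1 library left out they ranged from 0 to 225 in limma and, in voom, were 706, 793 and 320 without Con libraries 1, 2 and 3 and 692, 417 and 225 without CS libraries 1, 2 and 3. Members called were 1 by voom, 4 with library totals and 0 to 4 in voom with 1 library left out (Shank2 without Con library 1 or CS library 1, and Dlg1, Camk2g, Calm3 and Nrgn without Con library 2). Deviations from the group means had r = -0.07, 0.002 and 0.016 between same-numbered libraries and -0.061 to 0.056 between the others. With 3 libraries per group and a median of 62 reads per tested row, this check cannot exclude a pairing. With the replicate block limma called 0 rows and voom 731, 2 of them members (Shank2 and Nrgn, lower). Genes without overlap, 10, became 20 as deposited (19 higher, 1 lower) and 11 to 16 with 1 library left out (8 and 8 without Con library 3). The share of all rows without overlap was not counted under these settings. The median of the scaffolds was 0.40 as deposited, 0.21 with quantile normalization and 0.42 with voom on totals, that of the kinase and calmodulin genes 0.56, 0.42 and 0.58.

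Signs changed as follows. Dlgap2 went from -0.00 to 0.08 and 0.05 with pseudocounts of 1 and 0.5, 0.02 with RPKM of at least 1, 0.37 as deposited, 0.21 with quantile normalization, 0.01 with at least 60 reads, 0.02 with voom, 0.39 with totals and 0.03 with voom and the replicate block. With no filter Dlg2 was -0.05, Homer2 -0.05, Dlgap4 -0.004, Kalrn -0.06, Baiap2 -0.07, Magi2 -0.07 and Camk2a -0.05. As deposited and with voom on totals, Shank1 was 0.06 and 0.07, Shank3 0.02 and 0.03, Homer1 0.19 and 0.21, Camk1d 0.15 and 0.19, Camk4 0.14 and 0.15 and Ppp3ca 0.25 and 0.27. Ppp3ca was 0.10 with quantile normalization, and Baiap2 -0.05 with voom and -0.01 with its replicate block. With 1 library left out the estimates spanned -0.17 to 0.32 (Dlg2), -0.69 to 0.01 (Shank3), -0.23 to 0.18 (Homer2), -0.08 to 0.24 (Dlgap1), -0.14 to 0.12 (Dlgap2), -0.12 to 0.21 (Dlgap4), -0.10 to 0.12 (Kalrn), -0.17 to 0.34 (Baiap2), -0.25 to 0.20 (Magi2), -0.40 to 0.03 (Camk1d), -0.14 to 0.25 (Camk2a), -0.09 to 0.28 (Camk2b), -0.46 to 0.03 (Camk4), -0.11 to 0.46 (Camkk2), -0.27 to 0.04 (Ppp3ca) and -0.03 to 0.49 (Ppp3r1). The cause was not tested. Depth limits the low genes most, such as Homer3 with 84 reads in all.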
